A study of Mus musculus with 6 samples.

Results

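The genes described here encode proteins of myelin and of the mature oligodendrocyte, the cell that wraps axons of the central nervous system. They were taken by symbol, as Mbp, Mog, Mag, Cnp, Cldn11, Mobp, Enpp6 and Ugt8a, and every transcript row of the deposited table that the RefSeq gene table assigns to one of them was used. All 8 genes had a row, among 20263 named genes, and together they had 17 of the 32025 transcript rows. Mbp had 8 rows, Mobp and Cnp had 2 rows each, and the other 5 genes had 1 row each.

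The cells were neural stem cells of E14.5 embryos of CD-1 albino mice, kept as neurospheres, which are floating clusters of dividing stem and progenitor cells, under conditions that keep them proliferating. One group received a miR-128 mimic by nucleofection, an electrical transfection, and the other received the control RNA miR-Control. Each group had 3 biological replicates, RNA was taken 72 h later, and each RNA was run on 1 exon array. The labels name no transgene or allele. They give neither the share of cells that took up the RNA nor how long the spheres had been in culture.

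Oligodendrocytes arise from neural stem cells through dividing progenitors. Progenitors carry the transcription factor SOX10, stop dividing, switch on MYRF, and then make large amounts of membrane whose stacked layers form compact myelin. Myelin basic protein (Mbp) joins the inner faces of that membrane, Mog and Mag lie on its outermost and innermost surfaces, Cldn11 seals its edges, and Ugt8a makes its main glycolipids. In the mouse brain most myelin forms after birth, so these genes mark cells that proliferating embryonic neurospheres are not grown to contain. MiR-128 is a microRNA of neurons that lowers transcripts carrying a match to its seed.

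The mature mouse miR-128 is shown because it is the agent that separates the groups, with the seed, bases 2 to 8, in capitals. RefSeq (GRCm38.p6) gives the same 21-base product from Mir128-1, at chr1:128202404-128202424 on the plus strand, and from Mir128-2, at chr9:112118644-112118664 on the minus strand. The sequence of the mimic itself is not in the labels.
mmu-miR-128-3p: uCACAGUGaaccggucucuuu

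Promoters of 3 of the genes are shown for letters bound by factors that switch myelin genes on. Capitals mark ACAAT or ACAAAG, bound by SOX proteins, and CTGGCAC or CTGGTAC, bound by MYRF, read on both strands from 250 bases before to 50 bases after the start in RefSeq (GRCm38.p6). They are Mog (chr17:37023349-37023648, minus strand), Cnp (chr11:100574689-100574988, plus strand) and Mobp (chr9:120149492-120149791, plus strand), picked after their values were seen. Mog and Cnp had, beside Mbp, the highest fold change among the genes, and Mobp had the lowest.
Mog: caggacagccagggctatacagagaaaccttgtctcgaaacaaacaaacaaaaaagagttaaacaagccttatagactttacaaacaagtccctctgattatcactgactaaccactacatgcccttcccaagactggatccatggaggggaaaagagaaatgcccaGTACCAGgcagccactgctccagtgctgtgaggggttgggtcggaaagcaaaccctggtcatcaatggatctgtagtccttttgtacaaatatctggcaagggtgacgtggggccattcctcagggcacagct
Cnp: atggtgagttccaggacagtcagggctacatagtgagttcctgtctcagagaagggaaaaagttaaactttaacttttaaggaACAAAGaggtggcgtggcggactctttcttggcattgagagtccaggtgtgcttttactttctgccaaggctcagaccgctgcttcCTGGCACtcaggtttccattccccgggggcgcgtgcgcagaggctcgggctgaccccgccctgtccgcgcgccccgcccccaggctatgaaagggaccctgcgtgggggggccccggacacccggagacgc
Mobp: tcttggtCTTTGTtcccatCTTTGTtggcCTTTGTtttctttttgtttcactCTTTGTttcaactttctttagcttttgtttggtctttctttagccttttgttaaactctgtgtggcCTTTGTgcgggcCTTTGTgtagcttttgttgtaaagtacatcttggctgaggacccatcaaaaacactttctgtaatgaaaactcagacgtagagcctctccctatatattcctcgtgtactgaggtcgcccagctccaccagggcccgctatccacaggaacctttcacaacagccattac

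The MYRF letters occurred once in the Mog promoter, once in the Cnp promoter and in none of the Mobp promoter. The SOX letters occurred 6 times in the Mobp promoter, always as ACAAAG on the opposite strand, once in the Cnp promoter and nowhere in the Mog window. Promoters were read for 7 genes, all but Mbp. Of these genes, 4 held the SOX letters (Mag, Cnp, Mobp and Enpp6) and 3 held the MYRF letters (Mog, Mag and Cnp). Among 27025 promoters of the same length, 43.4% held the SOX letters and 7.07% the MYRF letters. A match describes the sequence only, and its relation to the fold changes was not tested. Mag, whose promoter is not shown, held both sets of letters and had a log2 fold change of 0.042.

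The array of miR-Control replicate 3 stood apart before any gene was considered. Its score on the leading principal component (35.4% of the variance) was 42.52, against -18.73 to -0.2261 for the other arrays, and it had the narrowest interquartile range, 2.873 against 2.983 to 3.221. Rows in the lower part of the scale were raised on it: over the 16012 rows below the median level, it lay 0.12 above the mean of the other arrays on the log2 scale, while miR-Control replicate 2 lay 0.11 below (-0.11). Most of the myelin genes are in that part of the scale. Values without miR-Control replicate 3 are therefore given beside those from all arrays.

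Most markers of neural stem cells were high on the scale of the table, and most myelin genes were low. The 11 radial glia and stem cell genes had a median level of 10.90 log2 units, with Vim, Sox2, Fabp7 and Slc1a3 between 11.94 and 13.57 in each group. Pax6, at 8.82, and Msi1, at 8.54, lay lower, and the stem cell surface gene Prom1, at 5.81, lay above only 20.9% of the rows. Cnp, at 10.53 over all arrays, lay above 92.4% of the rows and Cldn11, at 8.28, above 62.0%. Mog, Mbp, Mobp, Mag, Ugt8a and Enpp6 lay between 5.50 and 6.98, above 16.8% to 41.3% of the rows. The 20 genes of adult liver, pancreas, pituitary, muscle, eye and other non-neural tissues that served to mark the lower part of the scale lay between 4.16 and 8.25, so that 6 of the 8 myelin genes fell within their range and Cnp and Cldn11 above it. Cldn11, at 8.28, lay just above the highest non-neural gene, at 8.25. No detection call was used, so whether those 6 genes or Cldn11 gave signal above background is unknown. Probes differ in how strongly they bind, so these positions do not rank the genes against each other.

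Mbp encodes the protein that compacts myelin. Its row of highest level, NM_001025256, had 7.02, 6.93 and 7.02 log2 units with miR-128, against 6.76, 6.66 and 6.81 with miR-Control. All 3 miR-128 arrays lay above all 3 control arrays. The means were 6.99 ± 0.05 and 6.74 ± 0.08 (SD, n = 3), and the log2 fold change was 0.25 (SE 0.10, 95% interval 0.019 to 0.47), or 1.19-fold higher. It did not pass limma's test over all rows (adjusted p = 0.665), and the exact permutation p of 0.1 is the smallest that 3 arrays against 3 can give. In RNA from whole cultures, a change in the number of cells of a type and a change in RNA per cell cannot be told apart.

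The rows of Mbp did not all behave alike. In 6 of the 8 rows the groups did not overlap, with log2 fold changes of 0.21 to 0.25, and in 2 they did. NM_001025245 had 6.62, 6.83 and 6.84 with miR-128, against 6.60, 6.66 and 6.81 with miR-Control. Its log2 fold change was 0.073 (SE 0.11, 95% interval -0.19 to 0.33, adjusted p = 0.972). NM_010777 had 6.63, 6.55 and 6.74 with miR-128, against 6.47, 6.36 and 6.63 with miR-Control, a log2 fold change of 0.16 (adjusted p = 0.886). Set against the mean of the other 7 rows on the same array, NM_001025245 stood at -0.18, 0.12 and 0.007 with miR-128 and at 0.018, 0.2 and 0.17 with miR-Control. These differences overlapped between groups (exact two-sided permutation p = 0.2), and the row was singled out after its values were seen. Mbp has many transcript forms, including longer ones that begin far upstream and are not confined to oligodendrocytes. Which form each row covers is not annotated in the files or in the gene table, and rows of a gene can share probes, so they are not independent.

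Mobp encodes a small basic protein of compact myelin and was the gene with the lowest fold change. Its row of highest level, NM_008614, had 6.58, 6.68 and 6.67 with miR-128, against 6.81, 6.43 and 6.82 with miR-Control. The miR-128 values lay inside the range of the controls. The log2 fold change was -0.045 (SE 0.13, 95% interval -0.34 to 0.25, adjusted p = 0.988), and it was 0.022 without miR-Control replicate 3. The other row, NM_001039365, had 6.39, 6.37 and 6.48 with miR-128, against 6.44, 6.09 and 6.57 with miR-Control, a log2 fold change of 0.047 (SE 0.14, adjusted p = 0.988) that turned to -0.0045 after quantile normalization.

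**Figure D1:**
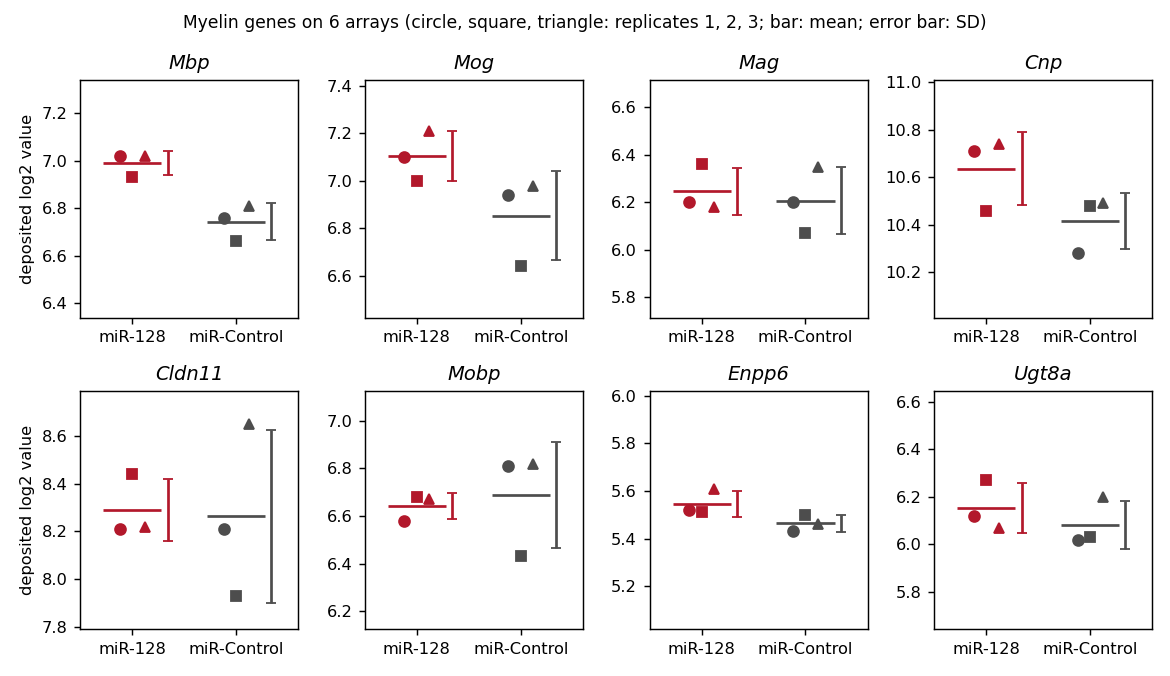
Deposited log2 values of the 8 genes, each by its row of highest mean level, with miR-128 on the left and miR-Control on the right of each panel; every vertical axis spans the same 1 log2 unit, symbols mark replicates 1 to 3, horizontal bars the mean and error bars the SD. The groups are apart in Mbp, Mog and Enpp6 and overlap in the other 5 genes, and miR-Control replicate 3 is the highest array for Cldn11 and Mobp.

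Mog and Mag are adhesion proteins of the immunoglobulin family on opposite faces of the sheath: Mog is on the outermost layer and Mag faces the axon. Mog had 7.10, 7.00 and 7.21 with miR-128, against 6.94, 6.64 and 6.98 with miR-Control. The groups did not overlap, by a margin of 0.02 between miR-128 replicate 2 and miR-Control replicate 3. The means were 7.10 ± 0.11 and 6.85 ± 0.18 (SD, n = 3), with a log2 fold change of 0.25 (SE 0.12, 95% interval -0.029 to 0.53, adjusted p = 0.741).

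Mag had 6.20, 6.36 and 6.18 with miR-128, against 6.20, 6.07 and 6.35 with miR-Control. The groups overlapped over almost their whole range. The log2 fold change was 0.042 (SE 0.11, 95% interval -0.22 to 0.30, adjusted p = 0.988), with the opposite sign after quantile normalization, at -0.013.

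Cldn11 forms the tight junctions between myelin layers. It had 8.21, 8.44 and 8.22 with miR-128, against 8.21, 7.93 and 8.65 with miR-Control. The controls held both the lowest and the highest value, with an SD of 0.36, the widest of the 8 genes. The log2 fold change was 0.025 (SE 0.18, 95% interval -0.38 to 0.43, adjusted p = 0.997). It was 0.22 without miR-Control replicate 3 (adjusted p = 0.489), -0.14 without miR-Control replicate 2 (adjusted p = 0.982) and -0.0029 after quantile normalization.

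Cnp encodes an enzyme that keeps the channels of cytoplasm in myelin open, and it is made earlier in the lineage than the other genes. Its row of highest level, NM_001146318, had 10.71, 10.46 and 10.74 with miR-128, against 10.28, 10.48 and 10.49 with miR-Control. Replicates 1 and 3 with miR-128 lay above every control, while replicate 2 fell between the control values. The means were 10.64 ± 0.15 and 10.42 ± 0.12 (SD, n = 3), and the log2 fold change was 0.22 (SE 0.12, 95% interval -0.055 to 0.49, adjusted p = 0.784). The other row, NM_009923, had 10.66, 10.41 and 10.73 with miR-128, against 10.24, 10.46 and 10.43 with miR-Control, and the same log2 fold change of 0.22. Without miR-128 replicate 2 the value of NM_001146318 was 0.31, and no alternative turned its sign.

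Enpp6, a phosphodiesterase that releases choline from lipids and marks oligodendrocytes that have just begun to differentiate, had 5.52, 5.51 and 5.61 with miR-128, against 5.43, 5.50 and 5.46 with miR-Control. The groups did not overlap, by a margin of 0.01. The log2 fold change was 0.083 (SE 0.10, 95% interval -0.14 to 0.30, adjusted p = 0.951), and the standard error exceeded the difference. Ugt8a, the enzyme that makes galactosylceramide, had 6.12, 6.27 and 6.07 with miR-128, against 6.02, 6.03 and 6.20 with miR-Control. Those ranges overlapped, and the log2 fold change was 0.067 (SE 0.11, 95% interval -0.18 to 0.31, adjusted p = 0.974).

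In limma 0 of the 17 rows had an adjusted p under 0.05, as did 0.0% of the whole table. Before adjustment 3 rows, all of Mbp and all higher with miR-128, had a p under 0.05, where 4.04% of all rows were higher at that p. Without limma's moderation of the variances 5 of the 17 rows did, all of Mbp and all higher, where 3.78% of all rows were. After adjustment 0 did. Those rows belong to 1 gene and are not independent. Counted by rows of highest level, 1 of the 8 genes was higher at that p in limma, against 3.74% of named genes. Groups did not overlap, with miR-128 higher, in 8 rows, namely 6 of Mbp and those of Mog and Enpp6, against 6.98% of all rows, and in none with miR-128 lower. Because 6 of those 8 rows belong to 1 gene, the count by gene is the plainer one: 3 of 8 genes, against 6.87% of named genes. After quantile normalization the groups were apart in 5 rows, against 6.56% of all rows, and in 1 gene, against 6.74% of named genes, with miR-128 higher in each.

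By their rows of highest level 7 of the 8 genes had a fold change above 0, against 56.2% of named genes, and the median log2 fold change was 0.075, against 0.019 over all named genes. Without miR-Control replicate 3 all 8 genes were above 0, with a median of 0.17. The log2 fold changes were then 0.28 for Mbp, 0.32 for Mog, 0.25 for Cnp and 0.22 for Cldn11. They were 0.13 for Ugt8a, 0.11 for Mag, 0.084 for Enpp6 and 0.022 for Mobp, and no adjusted p among the 17 rows was below 0.343. On those arrays 59.0% of named genes were above 0, the median over rows below the median level was 0.1, and the 20 non-neural genes had a median of 0.15, with 18 of 20 above 0. After quantile normalization of all 6 arrays the myelin genes had 5 of 8 above 0 and a median of 0.026, and the non-neural genes had 9 of 20 and a median of -0.015. Without miR-Control replicate 2 the counts were 5 of 8 and 6 of 20. The part that array differences in the lower scale had in the myelin values was not tested.

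**Figure D2:**
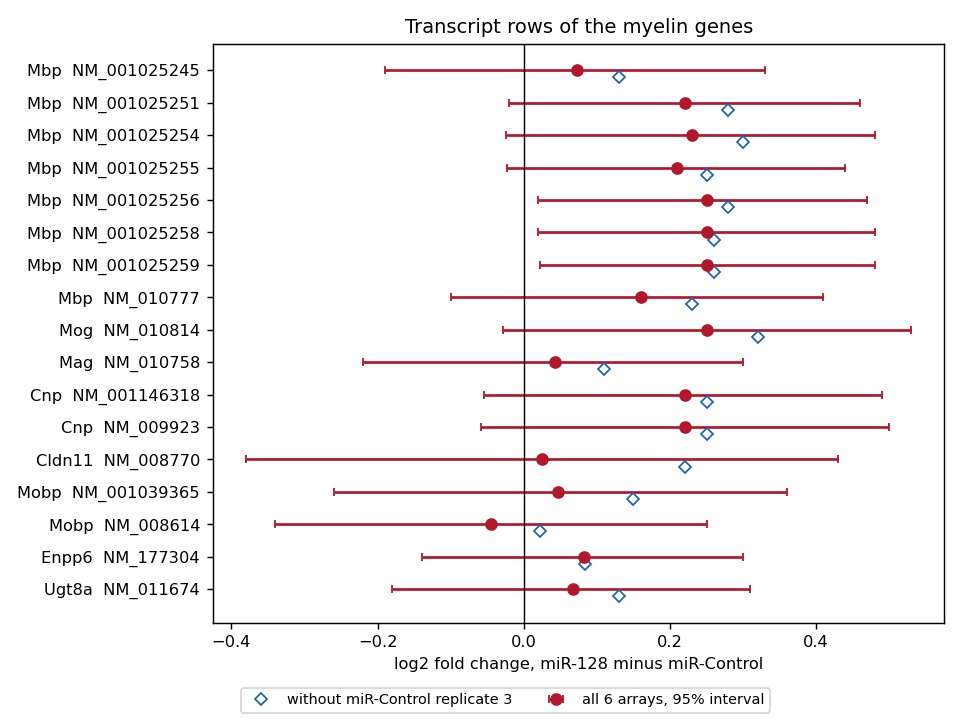
Log2 fold change, miR-128 minus miR-Control, of each of the 17 transcript rows (named by gene and RefSeq accession on the vertical axis); circles with bars are the limma estimate and its 95% interval from all 6 arrays, and diamonds are the estimate without miR-Control replicate 3. The interval lies above 0 only in 3 rows of Mbp, and the diamonds lie above 0 in all 17 rows.

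Across single arrays the 8 genes did not move as a block. With each gene set to its own mean over the arrays, their mean stood at 0.037, 0.06 and 0.07 with miR-128 and at -0.065, -0.18 and 0.075 with miR-Control. The control arrays thus held both the lowest and the highest mean, in replicates 2 and 3. The lowest value of every gene was on a control array, and for 5 of them on miR-Control replicate 2. The share of all named genes of which this holds was not computed. Over the 16012 rows below the median level, miR-Control replicates 1 and 2 lay at -0.082 and -0.11 against the mean of the other arrays. Within the miR-128 group, replicate 2 gave the lowest value of Mbp, Mog, Cnp and Enpp6 and the highest of Mag, Cldn11, Mobp and Ugt8a.

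Among 20255 other named genes, those whose profile over the 6 arrays lay nearest to the mean of the myelin genes were Cdx2, Umodl1, Tspoap1, Calcr and Crb2. Likeness was the root mean square difference of centred log2 values, which was 0.00747 for Cdx2 and 0.016 for Crb2, the fifth. The mean averages 8 profiles that differ: it ran from -0.18 to 0.075, and Cldn11 alone from -0.34 to 0.37. How far each myelin gene itself lay from that mean was not computed. Cdx2 had 7.48, 7.52 and 7.54 with miR-128, against 7.39, 7.28 and 7.53 with miR-Control. All 5 had their lowest value on miR-Control replicate 2, and among them are Cdx2, a homeobox gene of the intestine, and Calcr, the calcitonin receptor.

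Further genes of the sheath and of the lineage were read in the same way, as counts and medians beside all named genes. No gene of any of these lists passed the adjusted test. The other genes of myelin structure and junctions had 15 of 20 above 0 and a median of 0.11. Cd9, a tetraspanin of many cell types that myelin also holds, was at 0.39 (SE 0.13, adjusted p = 0.581), and 3 of the 20 genes had an unadjusted p under 0.05 with a higher level, where 3.74% of named genes did. Levels in this list ran from 4.45 to 11.77 log2 units, with a median of 7.42. Within it the myelin genes Mal and Opalin stayed in the low part of the scale, at 6.22 and 5.49 with miR-128 and at 6.14 and 5.45 with miR-Control.

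The enzymes and other metabolic genes of myelin had 9 of 15 measured genes above 0 and a median of 0.069, which was -0.057 without miR-Control replicate 3. Plekhb1, a membrane-associated protein with a pleckstrin domain, was at 0.35 (SE 0.10, adjusted p = 0.502) and Qdpr, which regenerates tetrahydrobiopterin, at -0.21 (SE 0.12, adjusted p = 0.808). Of the transcription factors of the lineage 9 of 11 were above 0, with a median of 0.1 and none at an unadjusted p under 0.05. Sox10 had 7.67, 7.80 and 7.80 with miR-128, against 7.58, 7.54 and 7.77 with miR-Control, a log2 fold change of 0.12 (adjusted p = 0.925). Myrf, which drives the final steps of maturation, was at -0.02 (SE 0.12, adjusted p = 0.995). Olig2, which starts the lineage and was high on the scale at 11.45 with miR-128 and 11.21 with miR-Control, was at 0.24 (SE 0.13, adjusted p = 0.778), and Zeb2 was at 0.22 (adjusted p = 0.825).

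Genes that hold maturation back lay on the same side as the myelin genes, with 11 of 12 above 0 and a median of 0.11. Tnfrsf21, a death receptor that restrains oligodendrocyte maturation, was at 0.31 (SE 0.12, adjusted p = 0.658) and Hes5, a Notch effector, at 0.33 (SE 0.15, adjusted p = 0.730). Among progenitor genes 15 of 17 were above 0, with a median of 0.12. Ptprz1, a receptor phosphatase, was at 0.25 (adjusted p = 0.673) and Cspg4, the NG2 proteoglycan, at 0.35. Pdgfra, the growth factor receptor that defines progenitors, had 6.30, 6.40 and 6.42 with miR-128, against 6.35, 6.31 and 6.58 with miR-Control, and its log2 fold change was -0.04 (SE 0.11, adjusted p = 0.988). Sox10 and Olig2 are in both the progenitor and the transcription factor lists. Gpr17 is in both the progenitor and the inhibitor lists, and Hes1, Hes5 and Notch1 are in both the inhibitor and the radial glia lists.

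Genes of peripheral myelin had 7 of 8 above 0 and a median of 0.086. Egr2, which directs myelination in Schwann cells and also responds early to stimulation, was at 0.48 (SE 0.13, adjusted p = 0.461) and Ncmap, a protein of noncompact myelin, at 0.13 (adjusted p = 0.921).

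Markers of other cell types were read beside these lists. Astrocyte genes had 7 of 9 above 0 and a median of 0.14, with the glutamate transporter Slc1a2 at 0.47 (SE 0.13, adjusted p = 0.456) and the calcium-binding S100b at 0.32 (SE 0.11, adjusted p = 0.578), and their median level was 8.48. In the same list the gap junction gene Gja1 was at -0.29 (adjusted p = 0.698) and the glycolytic enzyme Aldoc at -0.19 (adjusted p = 0.809). Groups did not overlap in 2 of these 9 genes with miR-128 higher and in 2 with miR-128 lower. Among all 20263 named genes they did not overlap in 1392 with miR-128 higher and in 1068 with miR-128 lower. S100b is also made by cells of the oligodendrocyte lineage. Radial glia genes had 6 of 11 above 0, with a median of 0.051 and a median level of 10.90, and Fabp7, a fatty acid binding protein, was at -0.30 (SE 0.11, adjusted p = 0.641). Neuronal genes had 7 of 12 above 0 and a median of 0.015, with Dcx, a protein of migrating neurons, at 0.24 and the synaptic Syt1 at 0.12. Microglial genes had 9 of 10 above 0 and a median of 0.037, with Aif1 at 0.16 and P2ry12 at 0.14, and none of their levels exceeded 7.36. That count was 5 of 10 after quantile normalization and 4 of 10 without miR-Control replicate 1. Vascular and mesenchymal genes had 6 of 10 above 0 and a median of 0.012, with the receptor Flt1 at -0.11 and the collagen Col1a1 at 0.12. In the non-neural list Crygd, a lens protein, was at -0.18 and Gh, growth hormone, at 0.17. The part of other cell types in the myelin values was not tested.

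**Figure D3:**
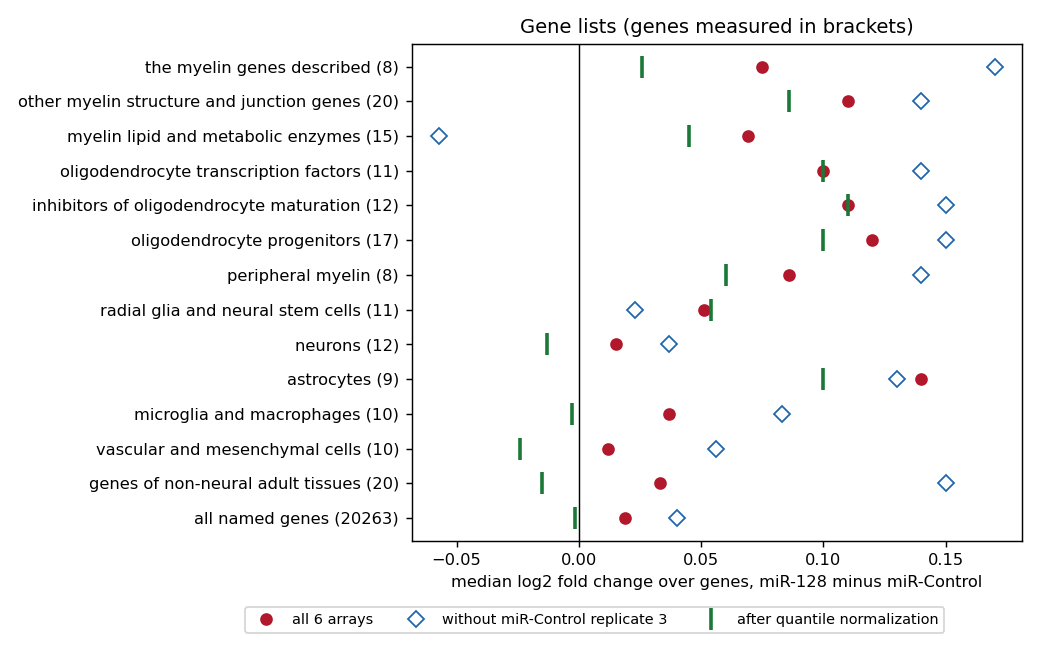
Median log2 fold change, miR-128 minus miR-Control, over the genes of each list, 1 row per gene; circles use all 6 arrays, diamonds leave out miR-Control replicate 3 and vertical bars follow quantile normalization. The myelin genes lie at 0.075, 0.17 and 0.026 under these settings, the non-neural genes at 0.033, 0.15 and -0.015, and the progenitor genes at 0.12, 0.15 and 0.1.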

How the data were processed

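The authors deposited log2 expression values, 1 column per array. Per the submitters' processing notes the tools were affy and RMA, without version. RMA subtracts background, aligns the arrays' distributions and summarises probes, and tends to shrink fold changes. No source used here gives the probe grouping or genome build. Rows are RefSeq transcripts, matched without version to the RefSeq table of GRCm38.p6 for names only: 25343 of 32025 rows were named, and 157 of 159 listed genes had a row.

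Groups came from the sample titles. limma 3.58.1 in R 4.3.3 (lmFit, eBayes) was fitted to all rows and 6 arrays, unpaired, two-sided, unfiltered and Benjamini-Hochberg adjusted over all rows. The threshold was 0.05. The fit was tested on simulated data whose arrays had equal spread, which does not cover an outlying array such as miR-Control replicate 3. Array number limits precision: the median standard error was 0.126. A gene stands by its row of highest mean level. Named beside the 8 genes are 2 genes of smallest p per list, Sox10, Myrf, Olig2 and Pdgfra, and the 5 nearest profiles. Mal, Opalin, Vim, Sox2, Slc1a3, Pax6, Msi1, Prom1, Gja1 and Aldoc were added after their values were seen. Some genes that this rule names are not reported here. Genes and lists were chosen with earlier results of these data known.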

Additional observations from a re-analysis of the deposited data

How the results depend on the processing

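None of the 17 rows passed under any alternative run; the lowest adjusted p was 0.229, for Mbp under array weights. Over all rows 4 passed among rows above the median level and 24 under array weights. Rows whose groups did not overlap, 8 in all, numbered 5 after quantile normalization and 6 after centring. After centring 4.92% of all rows lay apart with miR-128 higher. Above the median level 0 of 3 rows did, against 6.28% of all rows at that level. That filter alters no value, and the groups of those 3 rows already overlapped without it. The number of rows apart ranged from 8 to 11 when 1 array was left out, where 11.0% to 21.5% of all rows lay apart with miR-128 higher. Of the 9 rows without miR-Control replicate 2, 1 was lower with miR-128. Genes whose groups did not overlap, 3 in all, numbered 1 after quantile normalization and 1 after centring. Above the median level there were 0, and the groups of the genes there already overlapped without that filter. With 3 arrays against 3, genes whose groups do not overlap are those at the smallest exact permutation p. Among named genes 6.87% were apart with miR-128 higher, and 6.74% after quantile normalization. With 1 array left out 3 to 4 genes were apart, in either direction. Over all rows the share apart in either direction was then 17.2% to 33.5%, against 11.9% with no array left out. It was highest without miR-Control replicate 3, where 4 genes were apart. Because that share rose in each of those runs, the count of genes cannot show whether the result is stable. No permutation p and no share of named genes were computed for those runs. Only 2 genes, Cnp and Cldn11, remain above the median level, and both were higher with miR-128. Genes above 0 ranged from 5 (without miR-128 replicate 2 or miR-Control replicate 2) to 8 with 1 array left out, and their median from 0.052 to 0.17, the highest without miR-Control replicate 3. Signs turned for Mag (-0.013, quantile; -0.026 to 0.11, leaving out arrays), Cldn11 (-0.0029, quantile; -0.0032, centred; -0.14 to 0.22) and Mobp (NM_001039365 at -0.0045, quantile, and -0.091 to 0.15; NM_008614 at -0.17 to 0.022); the cause was not tested. Same-numbered arrays correlated at -0.00278, 0.173 and 0.0515 in their deviations from group means, and not every array correlated best with its own number. The labels name no pairing, and so few arrays cannot show whether the samples were paired. With the replicate block 0 rows passed, 2 of the 17 had an unadjusted p under 0.05, both higher, where 7.94% of all rows did in either direction, against 3 without it. Mbp and Mog had an adjusted p of 0.633 (log2 fold change 0.25, which the block cannot alter in this balanced design).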
